A study of Mus musculus with 9 samples.

Results

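The genes of MHC class II antigen presentation were described across 3 genotypes of interferon-treated mouse macrophages. The set was 10 genes taken by symbol from the 29763 named genes of the table: H2-Aa, H2-Ab1, H2-Eb1, H2-DMa, H2-DMb1, H2-DMb2, H2-Oa, Cd74, Ciita and Ctss. The rule used symbols and not expression values. All 10 were found and all 10 passed the filter on low values, which asked for 1 TPM or more in 3 or more libraries of the 9. TPM, a relative transcript abundance scaled to a common library total, is divided by transcript length. Levels of different genes can be set side by side only roughly, as the annotation and the summing of transcripts are not given. H2-Oa reached 1 TPM in the 3 wild-type libraries and in 0 libraries of either knockout, so it passed through the group where it was high and its lower level in the knockouts carries no support.

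The RNA measured was the polyadenylated RNA of bone marrow-derived macrophages, primary cells grown from mouse marrow over 7 days in medium with 30% L929 cell supernatant. Every library, wild type included, came from cells given 40 ng/ml interferon-gamma for 12 h, and no untreated library was analysed here. The groups were wild type (WT), a knockout of Ndufa4l3-miR147 (Ndufa4l3-miR147 KO, also called Nmes1-deficient) and a knockout of Ndufa4 (Ndufa4 KO), with 3 libraries each. The sources used here do not give the mouse strain, age, sex and number of animals, or how the alleles were made. The labels call the replicates technical, so every p below is set by library-to-library spread, possibly technical, and says nothing of variation among mice. The Ndufa4l3-miR147 gene, listed as AA467197, stood at 355 to 365 TPM in WT, 2.21 to 4.50 TPM in its knockout and 472 to 527 TPM in the Ndufa4 KO. Ndufa4 was listed at or near 0 in all genotypes, at most 0.621 TPM, so it gave no check of the Ndufa4 KO label.

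Class II molecules are pairs of an alpha and a beta chain that carry peptides from endosomes to the cell surface for CD4 T cells. New pairs bind the invariant chain, encoded by Cd74, which blocks the groove until cathepsin S (Ctss) and other endosomal proteases trim it to the fragment CLIP. H2-DM removes CLIP and lets peptide bind, and H2-O restrains H2-DM. Macrophages make little class II at rest and switch it on with interferon-gamma, which turns on Ciita. CIITA does not bind DNA itself but joins factors on a conserved promoter module, in which RFX binds the X box and NF-Y binds the Y box, read as GATTGG on one strand.

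Promoter sequences were available in RefSeq (GRCm38.p6, a window of the same length around each start) for 7 of the 10 genes, but not for H2-Ab1, Cd74 or Ciita. They are shown because the 5 class II genes below carry the same spaced letters in front of their RefSeq start. The listed levels of these 5 genes differed widely, but levels of different genes compare only roughly. The split of reads between H2-DMb1 and H2-DMb2 is also uncertain. Each line runs 5′ to 3′ on the gene's strand, with capitals marking AAC and, downstream, the Y box letters GATTGG.
H2-Aa, chr17:34287859-34287912, minus strand: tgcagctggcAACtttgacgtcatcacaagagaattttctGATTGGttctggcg
H2-DMb1, chr17:34153089-34153142, plus strand: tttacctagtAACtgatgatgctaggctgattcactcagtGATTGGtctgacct
H2-DMb2, chr17:34145118-34145171, plus strand: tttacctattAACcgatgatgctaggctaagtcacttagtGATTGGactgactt
H2-Oa, chr17:34092295-34092348, plus strand: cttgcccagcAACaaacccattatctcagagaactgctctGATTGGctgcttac
H2-Eb1, chr17:34305768-34305820, plus strand: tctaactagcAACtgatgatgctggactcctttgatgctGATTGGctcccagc

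AAC and GATTGG were 27 bases apart in H2-Aa, H2-DMb1, H2-DMb2 and H2-Oa and 26 bases apart in H2-Eb1. GATTGG began 49 bases before the RefSeq start in H2-Aa, 62 in H2-DMb1, 91 in H2-DMb2, 44 in H2-Oa and 60 in H2-Eb1. The GENCODE annotation used below sets other starts. It starts H2-DMb1 at 34153072 and H2-DMb2 at 34143307, so both of their stretches lie inside the annotated gene. The H2-Oa stretch runs past the GENCODE start at 34092340. Searched on both strands, AAC followed after 24 to 27 bases by GATTGG stood in the promoters of 5 of 7 genes, against 300 of 32851 RefSeq promoters (0.913%). The spacing was set after these sequences were seen, so the 2 shares are a description. GATTGG alone, which every spaced match contains, stood in 6 of 7 genes, H2-DMa being the sixth, against 16.1% of all promoters. The promoter of Ctss had neither. It held instead, on its plus strand 21 bases before the start, GAAA, then 2 bases, then GAAA, in capitals below, the form of an interferon-stimulated response element, which 3.44% of all promoters hold on either strand.
Ctss, chr3:95526750-95526785, plus strand: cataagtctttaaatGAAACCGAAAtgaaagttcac

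In the GENCODE annotation of GRCm38, 7 of the 10 genes lay close together on chromosome 17. In order they were H2-Oa, H2-DMa, H2-DMb2, H2-DMb1, H2-Ab1, H2-Aa and H2-Eb1, from 34092340, the start of H2-Oa, to 34316674, the end of H2-Eb1. H2-Aa was the member of this group on the minus strand. Ciita lay on chromosome 16 (10480059 to 10528418) and Ctss on chromosome 3 (95526786 to 95556403). All of these are annotated as protein coding.

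In WT cells the levels spanned from Ctss at 3748 ± 74.8 TPM (SD, n = 3) to H2-Oa at 1.16 ± 0.210 TPM. Cd74 followed Ctss at 859 ± 37.2 TPM. The chains of the class II molecule I-A came next with the peptide editor's beta chain between them: H2-Ab1 at 286 ± 9.59 TPM, H2-DMb1 at 215 ± 2.62 TPM and H2-Aa at 193 ± 9.17 TPM. Ciita stood at 34.6 ± 0.827 TPM and H2-DMa at 11.3 ± 1.19 TPM. The lowest were H2-Eb1 at 1.68 ± 0.706 TPM, H2-DMb2 at 1.19 ± 0.200 TPM and H2-Oa. H2-DMb2 overlapped with both H2-Eb1 and H2-Oa, and no other neighbours in the order overlapped between WT libraries. H2-Aa stood at 0.676 ± 0.0149 of H2-Ab1, and H2-DMa at 0.0525 ± 0.00502 of H2-DMb1. H2-DMb1 and H2-DMb2 share 517 stretches of 31 bases in their transcripts, 31.4% of those of H2-DMb1 and 29.7% of those of H2-DMb2, so the split of reads between them is uncertain.

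**Figure D1:**
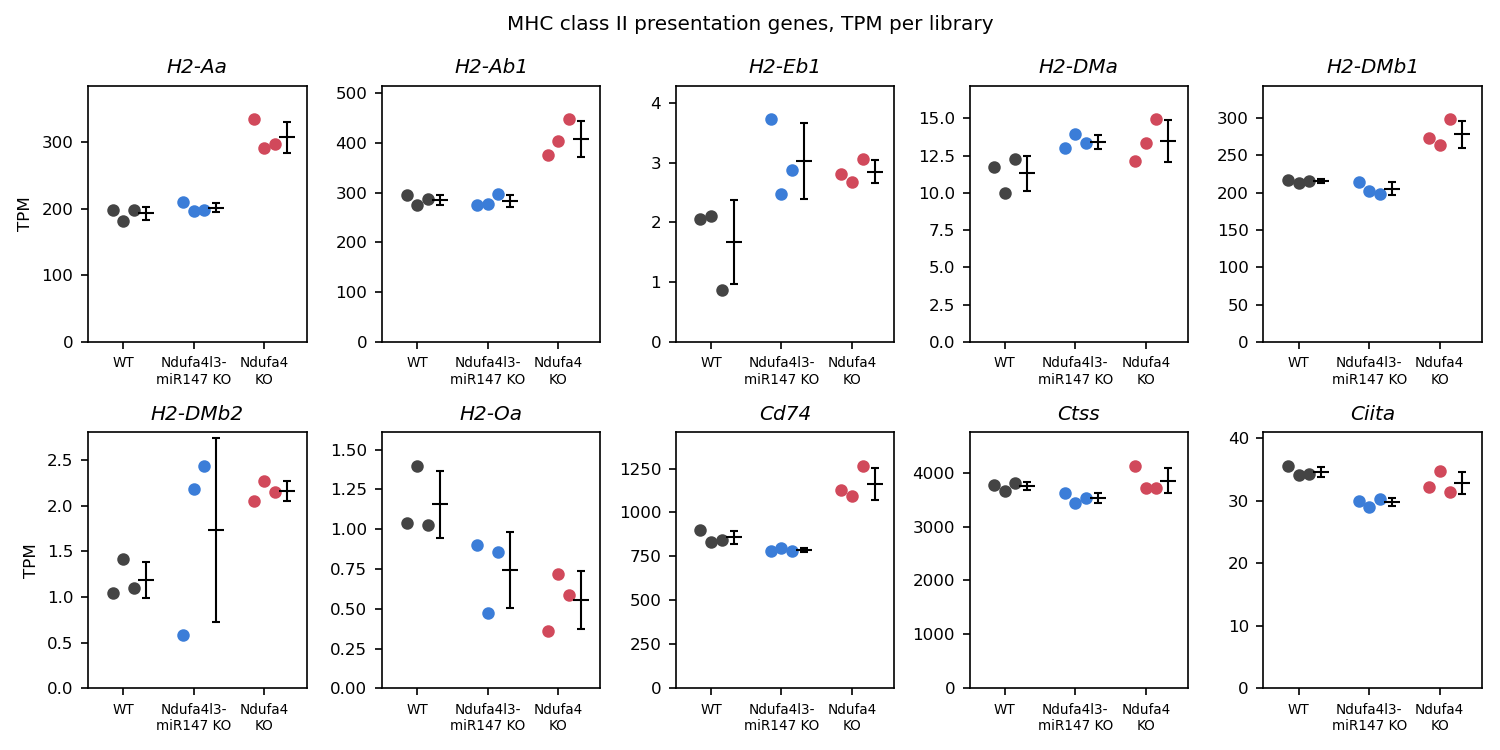
TPM (y axis, from 0) of each of the 10 class II genes in the 9 libraries, grouped by genotype on the x axis; points are libraries and the bar beside them is the mean ± SD (n = 3). H2-Aa, H2-Ab1, H2-DMb1 and Cd74 were higher in each Ndufa4 KO library than in any library of the other genotypes, while Ciita and Ctss were not.

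Of the 10 genes, 4 were higher in the Ndufa4 KO than in WT: both I-A chains, the invariant chain and H2-DMb1, by 1.29-fold to 1.59-fold. Fold changes here are differences of log2(TPM + 1) fitted with limma over all 9 libraries, and calls needed a limma p under 0.05 after Benjamini-Hochberg adjustment across the 11133 genes kept. Of those genes 8.59% were called in this comparison, 2.83% higher and 5.76% lower, against 4 of 10 and 0 of 10 class II genes. The median log2 fold change was 0.40 over the 10 genes, 0.43 over the 9 without H2-Oa and -0.08 over all genes kept. In bulk RNA a larger share of cells that express these genes and more RNA per cell cannot be told apart.

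H2-Aa, the I-A alpha chain, stood at 198, 183 and 199 TPM in the WT libraries and at 335, 291 and 298 TPM in the Ndufa4 KO. The lowest knockout library was above the highest WT library by a wide margin. The log2 fold change was 0.67 ± 0.06 (SE; limma adjusted p = 0.000935), which is 1.59-fold with a 95% interval of 1.44 to 1.76.

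H2-Ab1, the I-A beta chain, stood at 295, 275 and 287 TPM in WT and at 376, 404 and 447 TPM in the Ndufa4 KO. The groups did not overlap, and the knockout libraries differed more among themselves than the WT libraries did. The log2 fold change was 0.51 ± 0.07 (limma adjusted p = 0.00329), or 1.43-fold (95% interval 1.28 to 1.58). The summed level of both chains was 458 to 493 TPM in WT and 695 to 745 TPM in the Ndufa4 KO.

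Cd74, the invariant chain, was the most abundant of the 4, at 901, 833 and 841 TPM in WT and 1127, 1092 and 1265 TPM in the Ndufa4 KO. Again no libraries overlapped. Its log2 fold change was 0.43 ± 0.06 (limma adjusted p = 0.00421), or 1.35-fold (95% interval 1.23 to 1.48).

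H2-DMb1, the beta chain of the peptide editor, stood at 218, 212 and 216 TPM in WT and at 273, 264 and 298 TPM in the Ndufa4 KO. The smallest knockout value was above every WT value. The log2 fold change was 0.37 ± 0.06 (limma adjusted p = 0.00667), or 1.29-fold (95% interval 1.18 to 1.41).

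Ciita, the coactivator of these genes, stood at 35.6, 34.1 and 34.2 TPM in WT and at 32.2, 34.8 and 31.4 TPM in the Ndufa4 KO. The groups overlapped. The log2 fold change was -0.08 ± 0.06 (limma adjusted p = 0.442), and its 95% interval, 0.865-fold to 1.04-fold, lay below the intervals of the 4 genes above. Ctss, the protease that trims the invariant chain, stood at 3769, 3665 and 3810 TPM in WT and at 4126, 3723 and 3714 TPM in the Ndufa4 KO. One knockout library was above the WT range and the other two lay within it. The log2 fold change was 0.04 ± 0.05 (limma adjusted p = 0.644), with a 95% interval of 0.951-fold to 1.11-fold.

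The 4 genes of low level did not pass the test. H2-DMa, the alpha chain of the editor, stood at 11.7, 9.97 and 12.2 TPM in WT and at 12.1, 13.3 and 14.9 TPM in the Ndufa4 KO, with overlap (log2 fold change 0.23 ± 0.10, limma adjusted p = 0.181). H2-Eb1, the beta chain of I-E, stood at 2.06, 2.11 and 0.861 TPM in WT and at 2.82, 2.68 and 3.07 TPM in the Ndufa4 KO (0.56 ± 0.21, limma adjusted p = 0.131). Its libraries did not overlap, but 1 WT library was far below the other two. H2-DMb2, a second editor beta chain, stood at 1.04, 1.41 and 1.10 TPM in WT and at 2.05, 2.27 and 2.16 TPM in the Ndufa4 KO (0.53 ± 0.27, limma adjusted p = 0.240). H2-Oa, the alpha chain of the inhibitor H2-O, stood at 1.04, 1.40 and 1.03 TPM in WT and at 0.363, 0.719 and 0.584 TPM in the Ndufa4 KO (-0.47 ± 0.17, limma adjusted p = 0.117). Libraries did not overlap for 7 of the 10 genes, 6 higher and 1 lower, where 31.1% of all genes kept did not overlap (9.40% higher and 21.7% lower). The 1 lower gene was H2-Oa, whose passage through the filter by its WT libraries favoured that direction.

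Ndufa4 KO replicate 3 stood apart from the other libraries. Its upper quartile of TPM was 7.79, against 9.24 to 9.84 elsewhere, and across 10673 genes its deviation from the gene mean ran with transcript length at a Spearman rho of -0.408, against 0.0502 to 0.210 in the other libraries. Short transcripts were thus listed higher in it. The 4 genes that rose have short transcripts, 889 bases for H2-Ab1, 977 for H2-Aa, 1345 for Cd74 and 1404 for H2-DMb1, against a median of 2012 over genes kept. Ciita has 4095. Without that library the 4 log2 fold changes were 0.69 for H2-Aa, 0.45 for H2-Ab1, 0.37 for Cd74 and 0.32 for H2-DMb1, and all 4 were still called (largest limma adjusted p = 0.003). After removal of each library's trend with transcript length and GC content, an alternative chosen after these values were seen, they were 0.68, 0.52, 0.44 and 0.38. Ciita, at -0.08 with all libraries as deposited, was at -0.05 without that library and at 0.05 after the removal, and was not called in either. Over all genes the share of calls that were higher in the Ndufa4 KO was 32.9%, and 52.7% with median-of-ratios scaling, while the 4 genes were called higher under all 17 alternatives tried.

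**Figure D2:**
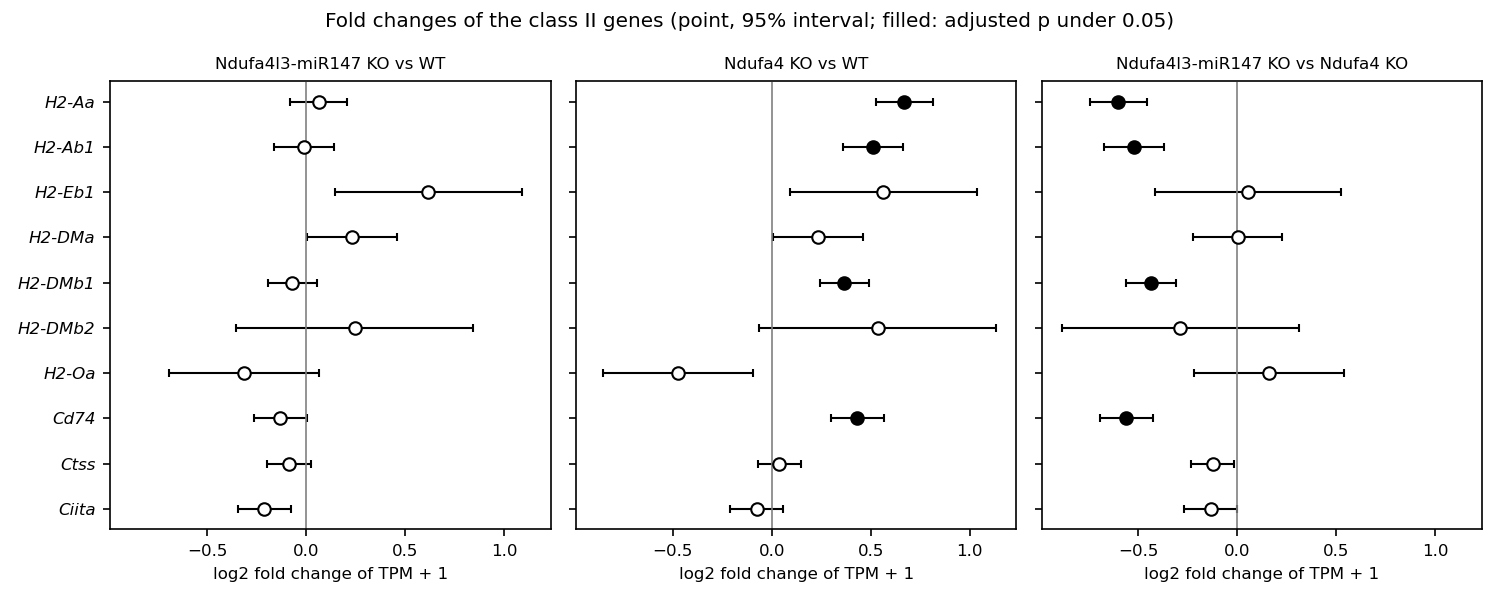
Log2 fold change of TPM + 1 (x axis) of the 10 class II genes in the 3 comparisons, one panel each; points are limma estimates, lines are 95% intervals, and filled points had an adjusted p under 0.05. In the middle panel H2-Aa, H2-Ab1, Cd74 and H2-DMb1 lie between 0.37 and 0.67, and in the left panel no point is filled.

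In the Ndufa4l3-miR147 KO none of the 10 genes was called against WT by limma, while 0.431% of all genes kept were called (0.243% higher and 0.189% lower). At an unadjusted p under 0.05 there were 3 of 10, Ciita, H2-DMa and H2-Eb1, against 8.24% of all genes kept. The median log2 fold change of the 10 genes was -0.04, and -0.01 without H2-Oa, beside 0.00125 over all genes kept. The libraries of both groups did not overlap for 6 of the 10 genes, 2 higher and 4 lower, against 23.9% of all genes kept (11.9% higher and 12.0% lower). H2-Oa was among the 4 lower genes, and its passage through the filter by its WT libraries favoured that direction.

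The I-A chains were close to WT. H2-Aa stood at 210, 197 and 199 TPM in the Ndufa4l3-miR147 KO, overlapping WT, with a 95% interval of 0.947-fold to 1.16-fold. H2-Ab1 stood at 276, 277 and 298 TPM, also overlapping WT, with a 95% interval of 0.893-fold to 1.10-fold. These intervals lie below the 1.59-fold and 1.43-fold measured for the same genes in the Ndufa4 KO. H2-DMb1 stood at 215, 203 and 198 TPM, with a 95% interval of 0.874-fold to 1.04-fold.

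Ciita stood at 29.9, 29.0 and 30.3 TPM in the Ndufa4l3-miR147 KO, all 3 below the lowest WT library. Its log2 fold change was -0.21 ± 0.06 (limma adjusted p = 0.270), and the adjusted p was 0.043 when these 6 libraries were fitted alone. Cd74 stood at 778, 797 and 778 TPM, also below all WT libraries, with a log2 fold change of -0.13 ± 0.06 (limma adjusted p = 0.627). Ctss stood at 3622, 3440 and 3525 TPM, below WT in each library (-0.09 ± 0.05, limma adjusted p = 0.746). These 3 genes had the lower values of both groups without overlap, yet none passed the threshold over all genes.

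H2-DMa stood at 13.0, 13.9 and 13.4 TPM in the Ndufa4l3-miR147 KO, above all WT libraries (0.23 ± 0.10, limma adjusted p = 0.599). H2-Eb1 stood at 3.73, 2.48 and 2.87 TPM, also above WT (0.62 ± 0.21, limma adjusted p = 0.413). H2-DMb2 was uneven, at 0.582, 2.18 and 2.44 TPM, and its SD between these libraries was larger than the difference from WT. H2-Oa stood at 0.902, 0.471 and 0.857 TPM.

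The knockouts were also set against each other. This comparison shares its libraries with those against WT, so it is no separate evidence. H2-Aa, Cd74, H2-Ab1 and H2-DMb1 were called lower in the Ndufa4l3-miR147 KO than in the Ndufa4 KO and none was called higher, where 3.24% of all genes kept were called, 1.04% lower and 2.20% higher. The log2 fold changes were -0.60 ± 0.06 for H2-Aa and -0.56 ± 0.06 for Cd74 (limma adjusted p = 0.00209 for both). They were -0.52 ± 0.07 for H2-Ab1 (limma adjusted p = 0.00539) and -0.44 ± 0.06 for H2-DMb1 (limma adjusted p = 0.00522). H2-DMb1 lost its call when the 6 libraries were fitted alone (adjusted p = 0.0533). Ciita (-0.14 ± 0.06, limma adjusted p = 0.241) and Ctss (-0.13 ± 0.05, limma adjusted p = 0.198) had lower values without overlap but were not called. Libraries did not overlap for these 6 genes, all lower in the Ndufa4l3-miR147 KO, against 25.3% of all genes kept (6.98% lower and 18.3% higher). After removal of each library's length and GC trend Ciita and Ctss were called, at limma adjusted p = 0.015 and 0.024. H2-DMa was level between the knockouts, with a 95% interval of 0.855-fold to 1.17-fold.

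Summed over all 10 genes, the class II set took 5218 to 5432 TPM in WT and 4962 to 5148 TPM in the Ndufa4l3-miR147 KO. In the Ndufa4 KO it took 5828 to 6285 TPM. Ctss was the largest part of these sums. Without Ctss, the other 9 genes took 1553 to 1663 TPM in WT and 1522 to 1527 TPM in the Ndufa4l3-miR147 KO. In the Ndufa4 KO those 9 took 2104 to 2361 TPM. The sums over 9 genes were mostly Cd74, H2-Ab1, H2-DMb1 and H2-Aa.

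Ratios within a library do not depend on how a library is scaled. The 5 ratios were compared between genotypes by a two-sided exact permutation test, 15 tests in all; with 3 libraries against 3 the lowest p it can give is 0.1, so none could pass 0.05. Ctss to Cd74, protease to invariant chain, was 4.18, 4.40 and 4.53 in WT, 4.65, 4.32 and 4.53 in the Ndufa4l3-miR147 KO and 3.66, 3.41 and 2.94 in the Ndufa4 KO. The Ndufa4 KO lay below both other genotypes without overlap (exact p = 0.1 for each, adjusted p = 0.214 over the 15 tests). H2-Aa to H2-Ab1 was 0.673, 0.663 and 0.692 in WT, 0.762, 0.713 and 0.668 in the Ndufa4l3-miR147 KO and 0.891, 0.721 and 0.666 in the Ndufa4 KO. This ratio of the I-A chains overlapped between all genotypes and was most spread in the Ndufa4 KO, where H2-Aa was highest in replicate 1 and H2-Ab1 in replicate 3.

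Cd74 to H2-Aa was 4.45 ± 0.184 in WT (SD, n = 3), 3.89 ± 0.167 in the Ndufa4l3-miR147 KO and 3.79 ± 0.442 in the Ndufa4 KO. The Ndufa4l3-miR147 KO did not overlap WT (exact permutation p = 0.1, adjusted p = 0.214), and the Ndufa4 KO did. H2-DMa to H2-DMb1 was 0.0655 ± 0.00438 in the Ndufa4l3-miR147 KO, without overlap above both WT at 0.0525 ± 0.00502 and the Ndufa4 KO at 0.0484 ± 0.00343 (exact permutation p = 0.1 for each, adjusted p = 0.214). H2-Oa to H2-DMa, inhibitor to editor, was 0.104 ± 0.0311 in WT, 0.0558 ± 0.0192 in the Ndufa4l3-miR147 KO and 0.0410 ± 0.0121 in the Ndufa4 KO, and it rests on H2-Oa at about 1 TPM or less.

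**Figure D3:**
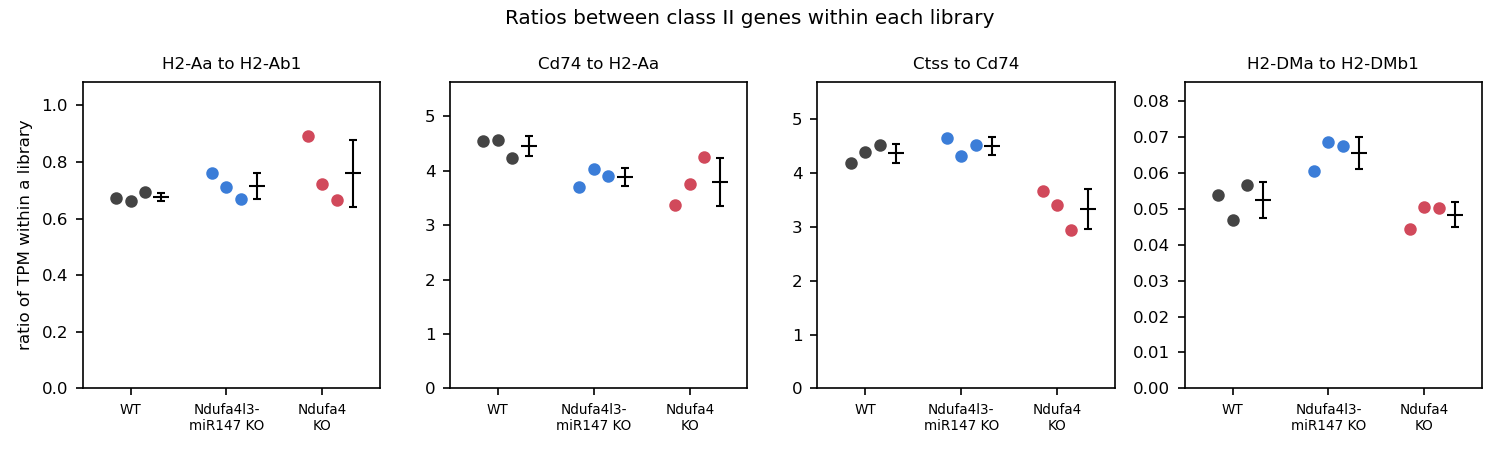
Ratio of TPM within each library (y axis, from 0) for 4 pairs of class II genes, by genotype on the x axis; points are libraries and bars are the mean ± SD (n = 3). Ctss to Cd74 is 2.94 to 3.66 in the Ndufa4 KO and at least 4.18 elsewhere, and H2-Aa to H2-Ab1 overlaps between genotypes.

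The rest of the pathway was read from gene lists covering the class II locus, its promoter factors, the inducers of Ciita, endosomal processing, trafficking and CD74 as a receptor. Of the other class II locus genes, 4 were kept, and none was called in any comparison by limma (0 at an unadjusted p under 0.05). Of all genes kept, 8.59% were called in the Ndufa4 KO against WT, 0.431% in the Ndufa4l3-miR147 KO against WT and 3.24% between the knockouts. In the same order, 26.1%, 8.24% and 20.3% had an unadjusted p under 0.05. With only 4 genes, counts of 0 are near these shares. The most abundant were Tap1, part of the transporter that brings peptides to class I, which stood at 338 ± 6.05 TPM in WT and 348 ± 25.5 TPM in the Ndufa4 KO, and Psmb9, an immunoproteasome subunit, which stood at 165 ± 3.93 and 183 ± 29.0 TPM. Both overlapped between these groups. H2-Ob, the partner chain of H2-Oa, stood at 2.31 TPM in WT, 2.35 TPM in the Ndufa4l3-miR147 KO and 2.40 TPM in the Ndufa4 KO.

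None of the 13 promoter factors and CIITA cofactors, among them the RFX and NF-Y subunits, was called by limma in any comparison. The shares called over all genes kept were 8.59% in the Ndufa4 KO and 0.431% in the Ndufa4l3-miR147 KO against WT, and 3.24% between the knockouts. At an unadjusted p under 0.05 there were 5 of 13 in the Ndufa4 KO against WT, 1 in the Ndufa4l3-miR147 KO against WT and 2 between the knockouts, where 26.1%, 8.24% and 20.3% of all genes kept had such a p. The median log2 fold change of the 13 genes in the Ndufa4 KO against WT was -0.14. Of the 5, Rfxap (0.29 ± 0.08, limma adjusted p = 0.0509) and Carm1 (0.21 ± 0.08, limma adjusted p = 0.118) were higher. Ep300 (-0.48 ± 0.18), Nfyc (-0.22 ± 0.09) and Zxdc (-0.22 ± 0.09) were lower (limma adjusted p = 0.144, 0.161 and 0.154). Nfya, the NF-Y subunit that contacts the GATTGG box, stood at 93.6 ± 2.47 TPM in WT and 89.8 ± 16.9 TPM in the Ndufa4 KO. Atf1, of the family that binds the X2 site of the module, stood at 45.9 ± 2.02 and 44.3 ± 8.84 TPM. In both, Ndufa4 KO replicate 3 was the lowest library of all 9.

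Of 15 inducers and repressors of Ciita, 1 was called, in the Ndufa4 KO against WT; 2 had an unadjusted p under 0.05 there. Over all genes kept those shares were 8.59% and 26.1%, so the list's counts were near or below the background. Usf1, a factor that binds the interferon-responsive Ciita promoter, stood at 116, 116 and 115 TPM in WT and at 73.0, 101 and 90.4 TPM in the Ndufa4 KO. It was lower by a log2 fold change of -0.40 ± 0.10 (limma adjusted p = 0.0420), a call lost without any 1 of the WT libraries and in 11 of 17 alternatives in all.

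Of 15 endosomal processing genes kept, 3 fell in the Ndufa4 KO and none rose, where 5.76% of all genes kept were called lower and 2.83% higher. Ctse, the aspartic protease cathepsin E, stood at 64.5, 64.4 and 65.6 TPM in WT and at 8.22, 7.86 and 5.49 TPM in the Ndufa4 KO (-3.02 ± 0.12, limma adjusted p = 1.07e-05). In the Ndufa4l3-miR147 KO it stood at 163, 152 and 152 TPM, above all WT libraries (1.25 ± 0.12, limma adjusted p = 0.00267). Ctse thus moved in opposite directions in the 2 knockouts, and their difference was 4.27 ± 0.12 (limma adjusted p = 2.41e-07).

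Lgmn, the asparagine endopeptidase that makes early cuts in the invariant chain, stood at 1079, 1082 and 1087 TPM in WT and at 919, 975 and 915 TPM in the Ndufa4 KO (-0.21 ± 0.04, limma adjusted p = 0.0159). The groups did not overlap, but the call was lost in 5 of 17 alternatives, including without any 1 WT library. Ctsd, cathepsin D, stood at 5830, 5778 and 5726 TPM in WT and at 4956, 4849 and 5453 TPM in the Ndufa4 KO (-0.19 ± 0.05, limma adjusted p = 0.0484), a call lost in 13 of 17 alternatives. The list's median was -0.13 beside -0.08 over all genes.

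Of 16 trafficking and turnover genes, 2 fell in the Ndufa4 KO and none rose, beside the same 5.76% and 2.83% of all genes kept. Cd81, a tetraspanin found in membrane patches with class II, stood at 132, 142 and 134 TPM in WT and at 103, 105 and 103 TPM in the Ndufa4 KO (-0.39 ± 0.06, limma adjusted p = 0.00486), called in all 17 alternatives. Cd83, which protects surface class II from ubiquitin-driven loss, stood at 23.3, 23.0 and 22.8 TPM in WT and at 17.8, 17.8 and 19.1 TPM in the Ndufa4 KO (-0.32 ± 0.06, limma adjusted p = 0.0159). The call on Cd83 was lost without any 1 WT library and in 6 of 17 alternatives in all.

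CD74 at the cell surface also binds the cytokine MIF together with CXCR4 or CD44. Of 4 genes kept from that list, 1 fell and 1 rose in the Ndufa4 KO. Of all genes kept 5.76% were called lower and 2.83% higher. Cxcr4 fell, from 24.6, 24.9 and 26.1 TPM in WT to 10.3, 9.34 and 8.66 TPM (-1.33 ± 0.09, limma adjusted p = 0.000331). Mif rose, from 803, 832 and 779 TPM to 910, 924 and 1028 TPM (0.24 ± 0.06, limma adjusted p = 0.0329), a call lost in 8 of 17 alternatives, including without any 1 WT library. In the Ndufa4l3-miR147 KO against WT neither was called, at -0.26 ± 0.09 for Cxcr4 (limma adjusted p = 0.413) and 0.17 ± 0.06 for Mif (limma adjusted p = 0.408).

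**Figure D4:**
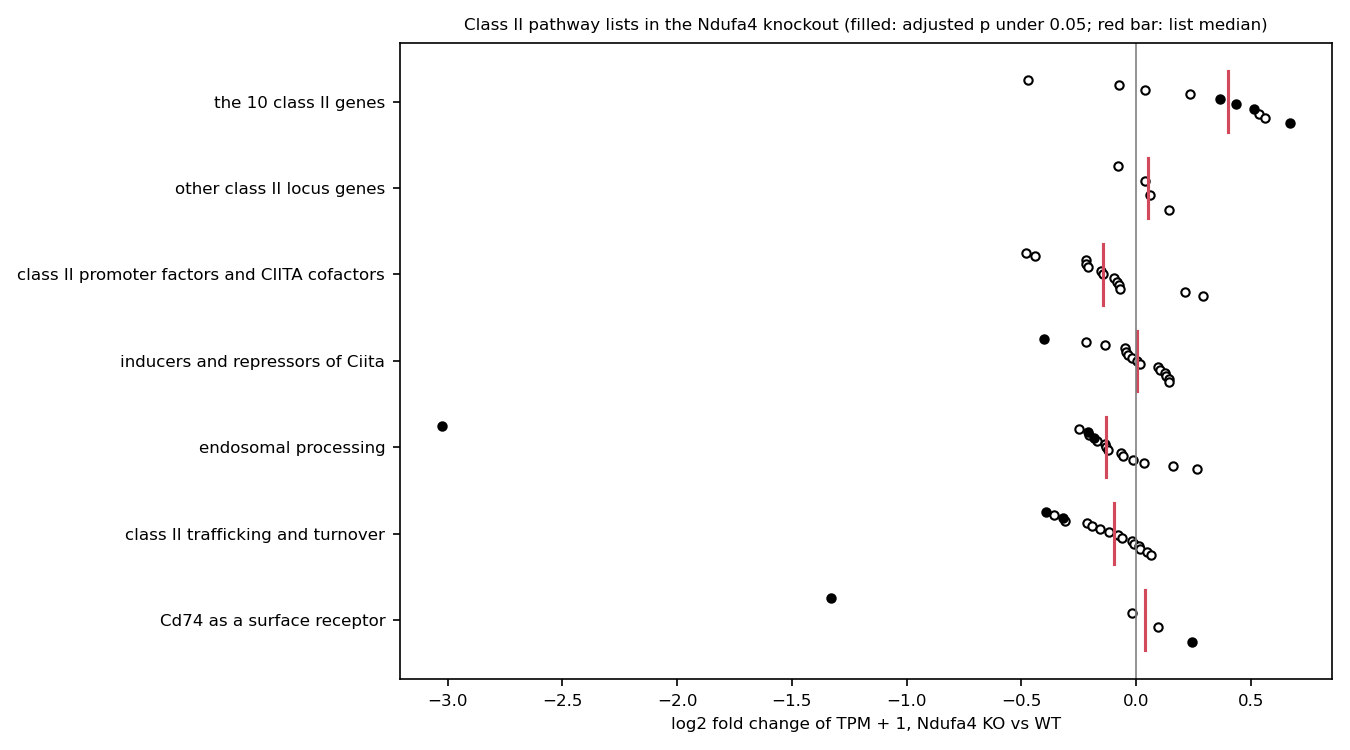
Log2 fold change of TPM + 1 in the Ndufa4 KO against WT (x axis) for the 10 class II genes and 6 lists of related genes (y axis); each point is a gene, filled where the adjusted p was under 0.05, and the red bar is the list's median. The class II genes have a median of 0.40; from top to bottom the 6 lists have medians of 0.05, -0.14, 0.00408, -0.13, -0.10 and 0.04, beside -0.08 over all genes kept.

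Markers of the labelled cell type were abundant: all 9 macrophage markers were kept, and their summed level was 9390 to 9520 TPM in WT, 9000 to 9180 TPM in the Ndufa4l3-miR147 KO and 9910 to 10400 TPM in the Ndufa4 KO. Lyz2 was the largest part of that sum, and the markers did not move together. Of the 9, 3 were called in the Ndufa4 KO against WT, 1 higher and 2 lower. Of all genes kept 2.83% were called higher and 5.76% lower there. Lyz2, lysozyme, was higher (0.24 ± 0.04, limma adjusted p = 0.0112, lost in 5 of 17 alternatives). Cd14, a lipopolysaccharide co-receptor, was lower, at 160, 151 and 149 TPM in WT and 85.5, 81.9 and 88.1 TPM in the Ndufa4 KO (-0.84 ± 0.06, limma adjusted p = 0.000331, called in all 17). Mertk, a receptor for dying cells, was lower (-0.51 ± 0.13, limma adjusted p = 0.0487, lost in 10 of 17). Between the knockouts Cd14 was higher and Lyz2 lower in the Ndufa4l3-miR147 KO, at log2 fold changes of 0.57 ± 0.06 and -0.40 ± 0.04 (limma adjusted p = 0.00146 and 0.00171).

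Dendritic cells and B cells also make class II, so their markers are given beside the 4 genes that rose. Of 12 conventional dendritic cell markers 5 were kept and 6 were under 1 TPM in all libraries. Their summed level was 67.5 to 82.2 TPM in WT, 67.9 to 72.4 TPM in the Ndufa4l3-miR147 KO and 83.8 to 114 TPM in the Ndufa4 KO. Clec9a, a receptor for dead cells, stood at 25.3, 27.7 and 27.1 TPM in WT and 73.4, 53.5 and 38.7 TPM in the Ndufa4 KO (0.98 ± 0.19, limma adjusted p = 0.0166, lost in 4 of 17 alternatives, including without any 1 WT library). Among the Ndufa4 KO libraries replicate 1 had the highest Clec9a, the highest H2-Aa and the lowest H2-Ab1. The other kept markers did not pass the test in this comparison and had no common direction. Xcr1 stood at 1.77, 1.34 and 1.25 TPM in WT and at 2.83, 1.69 and 1.45 TPM in the Ndufa4 KO (0.26 ± 0.18, limma adjusted p = 0.393). In the Ndufa4 KO Xcr1 fell from replicate 1 to replicate 3, as Clec9a did. In WT it was also highest in replicate 1, where Clec9a was lowest. Cd24a went from 14.9 to 9.84 TPM in the mean (-0.53 ± 0.20, limma adjusted p = 0.141) and Clec10a from 5.42 to 3.21 TPM (-0.58 ± 0.16, limma adjusted p = 0.0616). Batf3 stood at 25.3 TPM in WT and 26.1 TPM in the Ndufa4 KO but at 16.7 TPM in the Ndufa4l3-miR147 KO, which was lower than the Ndufa4 KO (-0.61 ± 0.13, limma adjusted p = 0.0382, lost in 10 of 17). Of the 6 markers under 1 TPM in all libraries, Flt3, Zbtb46 and Cd209a were at most 0.0725, 0.3 and 0.0626 TPM, and Ccr7 at most 0.725 TPM. B cell markers summed to at most 4.66 TPM, with Ms4a1 at most 0.139 TPM. Plasmacytoid dendritic cell markers summed to 19.2 to 22.4 TPM in WT and 15.7 to 17.7 TPM in the Ndufa4 KO. Most of these sums was Tcf4, at 17.7 to 20.6 and 14.3 to 17.1 TPM, and 4 of the 6 markers were under 1 TPM in all libraries. Neutrophil markers varied between libraries of one genotype, from 3.83 to 80.8 TPM in WT. The part of any such cells in the class II levels was not tested.

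The genes most like the class II pattern were sought over all 9 libraries. Likeness was the root mean square distance of a gene's centred log2(TPM + 1) from the mean centred profile of H2-Aa, H2-Ab1 and Cd74, and a gene with no variation would lie at 0.263. H2-Ab1 and Cd74 were nearest, at 0.0528 and 0.0581, but they are part of that profile, as is H2-Aa at 0.0851. H2-DMb1, which is not, lay at 0.0813 and ranked 6 among the genes kept. It shares its calls with the genes of the profile, so its rank is a description. Ciita lay at 0.266 and ranked 2433, about as far as a gene with no variation. Ctss ranked 1192 and H2-DMa 1553. H2-DMb2, H2-Eb1 and H2-Oa lay beyond 0.263, at 0.333, 0.374 and 0.453, and ranked 5513, 7153 and 9273.

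The 6 nearest genes outside the set with a mean of at least 5 TPM were Evl at 0.0753, Cxcl16 at 0.0783, Impdh2 at 0.0809, Ung at 0.0841, Acvrl1 at 0.0882 and Mrpl52 at 0.0902. Evl, an actin regulator, stood at 63.6 TPM in WT, 64.1 TPM in the Ndufa4l3-miR147 KO and 87.8 TPM in the Ndufa4 KO. Cxcl16, a chemokine that is also a scavenger receptor, stood at 211, 211 and 279 TPM in the same order. Their likeness is a description and follows from how they were picked.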

How the data were processed

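Values were the TPM of 9 polyadenylated RNA libraries, deposited by the authors in 1 table. The submitters' processing notes name the tools kallisto, DESeq2 and edgeR and the builds mm10 and GRCm39, without a role for any. For the annotation and the summing of transcripts, the method is not given in the sources used here. TPM keep no read depth, so depth is unknown. They are shares of a fixed total, so a gain in abundant genes lowers the others. Values were fitted as log2(TPM + 1), which understates changes of low genes, with limma 3.58.1 in R 4.3.3, 1 mean per genotype and an intensity trend. All 9 libraries shared 1 estimate of the spread. Genes that reached 1 TPM in 3 or more libraries were kept, 11133 of 29763. Tests were two-sided, with Benjamini-Hochberg adjustment over all genes kept and a threshold of 0.05. The fit was tested on simulated data.

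The class II genes and all lists were chosen with earlier results of these data known. Besides the 10 genes, the text names up to 3 called genes of each pathway list per direction and comparison, or the 2 most abundant where none was called, and the 6 nearest genes by likeness. H2-Ob, the promoter factors and cofactors with an unadjusted p under 0.05 and the marker genes printed were chosen after their values were seen. Alternatives were the pseudocount, the filter, the scaling, the libraries fitted, a replicate block, leaving out each library and, added after seeing the data, removal of each library's length and GC trend. Ifi30 was not analysed here.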

Additional observations from a re-analysis of the deposited data

How the results depend on the processing

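Of 491 values for the 10 class II genes under the alternatives, 486 stayed on their side of the threshold, 467 of them with the same sign. The other 19 changed sign without a call in either fit, among them Ciita in the Ndufa4 KO against WT, and none was beyond 0.111 on the log2 scale. In all, 4 values newly passed the threshold, 1 no longer did, and 0 called values changed sign. For the other named genes 1058 of 1173 stayed on their side, 1039 of them with the same sign, 101 lost their call and 14 gained one, and 0 called values changed sign. H2-DMb2 passed in the Ndufa4 KO against WT without Ndufa4l3-miR147 KO replicate 1 (adjusted p = 0.048). Fitting only the 6 libraries compared changed the number of genes called by limma to 306 for the Ndufa4l3-miR147 KO against WT (48 with all 9), 242 for the Ndufa4 KO against WT (956) and 64 between the knockouts (361). The class II genes called were then 1 (Ciita), 4 and 3. Removing each library's length and GC trend gave 116, 1591 and 779 genes, with 0, 4 and 6 class II genes. Leaving out 1 library in turn gave 13 to 202, 261 to 1587 and 82 to 742 genes, with 0, 4 to 5 and 4 class II genes; the cause was not tested. Libraries with the same replicate number showed no clear tendency to deviate together (correlations from -0.138 to 0.179). For different numbers the correlations ran from -0.164 to 0.132. With 3 libraries per genotype these values cannot exclude a pairing. With the replicate block 24, 661 and 162 genes and 0, 4 and 4 class II genes were called. Among the ratios 104 of 105 values moved by less than 1 SD. The log2 difference of H2-Oa to H2-DMa in the Ndufa4 KO against WT, -1.35, was -0.705 after adding 1 TPM to both genes. Unknown depth and TPM near 1 limit H2-Oa, H2-DMb2 and H2-Eb1.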
